A study of Mus musculus with 49 samples.

Results

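Amino acid and peptide transporters were followed across sorted and unsorted cells of the mouse small-intestinal crypt. The set holds every gene of the read-count table whose symbol is a family prefix (Slc1a, Slc3a, Slc6a, Slc7a, Slc15a, Slc36a or Slc38a) plus a number, with 10 or more counts in at least 2 libraries. This left 46 genes, out of 61 symbols of these 7 families and 24062 gene symbols in all. Just inside the count limit was Slc1a7, whose second-highest library held 10 counts, and just outside was Slc38a8, whose second-highest library held 9. The filter on low counts before testing passed 45 of the 46; Slc1a7 was not tested, and its level ran from 0 to 0.879 CPM (read counts scaled to a common library size) over the libraries. The rule set a minimum count and used no difference between groups.

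The study sequenced RNA of isolated stem, progenitor and differentiated cells of the intestinal crypt, in 25 libraries of 12 groups. All came from the proximal small intestine of adult mice of a mixed B6;129 background. Goblet cells (2 libraries) were sorted on CD274 and CD69 at 115 h after a first injection of DBZ, a Notch inhibitor given at 48 mg/kg with a second injection at 12 h. CD274+CD69+ cells were sorted in the same way from mice given diphtheria toxin (DT, 50 µg/kg, on alternate days, killed 1 day after the last injection; 2 libraries) and from control mice (2 libraries); the labels call both wild type and name no toxin receptor allele. Bmi1-GFP cells came from Bmi1-GFP/+ reporter mice, 1 library 36 h after 10 Gy of irradiation and 3 libraries without it. Paneth cells (2 libraries) were sorted from wild-type mice as CD24-high and UEA-lectin-high, and enteroendocrine cells (2 libraries) as CD24-high and UEA-negative. Enterocyte progenitors (2 libraries) were unsorted crypts of Atoh1 F/F; Villin-CRE mice, 3 weeks after tamoxifen (1 mg for 5 days); Villin drives the Cre throughout the intestinal epithelium, and loss of Atoh1 removes the secretory lineages. Rbpj secretory progenitors (2 libraries) were unsorted crypts of Rbpj F/F; Villin-CRE mice on day 3 of a 2 mg tamoxifen course of 2 days. DBZ secretory progenitors (2 libraries) were unsorted crypts of mice labelled Atoh1 F/F, with no Cre named, killed 38 h after the first of a pair of 48 mg/kg DBZ injections. Stem cells were sorted for GFP from Lgr5EGFP-DTR mice (Lgr5-GFP-DTR, 2 libraries) and for high GFP from Lgr5EGFP-IRES-CRE-ERT2 mice (Lgr5-GFP-Cre, 3 libraries). Cells were released with TrypLE for the Bmi1-GFP and both Lgr5 sorts and with Dispase for the Goblet, CD274+CD69+, Paneth and enteroendocrine sorts. Release and group therefore cannot be told apart where Paneth, enteroendocrine or CD274+CD69+ cells are set against Lgr5-GFP-Cre cells, or Bmi1-GFP against enteroendocrine cells, nor sorting and group where unsorted crypts are. The labels give DBZ for both Goblet libraries and for no CD274+CD69+ control or Paneth library. Drug treatment and group therefore cannot be told apart where Goblet cells are set against either. The labels do not say which libraries share a mouse, so p-values measure the spread between these libraries.

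Total counts ran from 11179085 to 27371108 per library, and the 46 transporters took between 0.0868% and 0.799% of them. Levels below are CPM scaled by TMM (trimmed mean of M values) and say nothing of one gene's level against another's, since they are not per length. The named markers were present in their own sorts, but several libraries carried others. In the Goblet libraries 7 goblet markers summed to 60229.8 and 98901 CPM and 12 enterocyte markers to 105181 and 104307 CPM, none of the 12 at 0. The enteroendocrine sort summed to 27842 and 13382 CPM for 8 enteroendocrine markers and to 63339 and 53071 CPM for 6 Paneth markers. Both DBZ libraries differed from each other, with an enterocyte sum of 4793 and 21354 CPM and a stem-cell sum of 1467 and 240.1 CPM. The CD274+CD69+ control replicates lay closer than any other pair of replicates, with a chi-square per degree of freedom of 4.23 against 27.6 to 194 elsewhere. The labels call them biological replicates and give them different library kits, so they were counted as 2. Whether they share RNA is not stated and this value cannot show it, and the tests against control rest on their being separate. In bulk libraries, fewer cells of a type and less RNA per cell cannot be told apart.

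Enterocytes take up digested protein as free amino acids and as dipeptides and tripeptides. Apical carriers bring them in: Slc15a1 (PepT1) carries small peptides with protons, Slc6a19 (B0AT1) carries neutral amino acids, Slc7a9 paired with Slc3a1 carries cystine and basic amino acids, and Slc1a1 (EAAC1) carries glutamate and aspartate. Basolateral exchangers made of Slc3a2 with Slc7a7 or Slc7a8 release them to the blood. Other members supply growing cells (Slc7a5, Slc1a5), move amino acids out of lysosomes, or clear neurotransmitters and carry taurine and creatine.

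RefSeq promoter sequences (GRCm38.p6, 250 bases before to 50 after an annotated start, of which a gene can have more than 1) were present for 34 of the 46 genes. Shown are 2 uptake carriers whose levels differed in opposite directions in the goblet sort (Slc15a1, Slc1a1), both chains of the cystine carrier (Slc3a1, Slc7a9), and the cystine-glutamate exchanger Slc7a11. Capitals mark matches, on either strand, to the HNF4-type motif CAAAGTCCA and its shorter form CAAAGTC, the CDX-type motif TTTATG and its variant with a free base, TTTATNG, the GATA-type motif AGATAA, and the amino acid response motif TGATGCAAT with its looser form TGATGNAAN.
Slc15a1: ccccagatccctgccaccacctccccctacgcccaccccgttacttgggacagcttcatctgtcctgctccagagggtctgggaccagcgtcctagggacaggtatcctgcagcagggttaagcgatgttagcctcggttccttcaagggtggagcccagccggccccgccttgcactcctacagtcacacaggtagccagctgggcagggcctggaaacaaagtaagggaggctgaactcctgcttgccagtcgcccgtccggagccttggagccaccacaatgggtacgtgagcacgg
Slc1a1: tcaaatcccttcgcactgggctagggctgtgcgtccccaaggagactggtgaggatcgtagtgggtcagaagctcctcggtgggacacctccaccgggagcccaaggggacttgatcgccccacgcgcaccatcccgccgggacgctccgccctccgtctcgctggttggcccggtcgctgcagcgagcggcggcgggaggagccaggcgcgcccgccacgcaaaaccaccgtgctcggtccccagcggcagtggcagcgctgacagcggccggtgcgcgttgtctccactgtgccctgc
Slc3a1: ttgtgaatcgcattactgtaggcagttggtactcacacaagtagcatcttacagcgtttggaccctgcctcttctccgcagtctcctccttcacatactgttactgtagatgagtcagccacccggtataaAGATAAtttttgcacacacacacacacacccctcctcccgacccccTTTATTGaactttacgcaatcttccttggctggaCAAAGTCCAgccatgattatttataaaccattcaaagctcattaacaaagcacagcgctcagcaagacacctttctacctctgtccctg
Slc7a9: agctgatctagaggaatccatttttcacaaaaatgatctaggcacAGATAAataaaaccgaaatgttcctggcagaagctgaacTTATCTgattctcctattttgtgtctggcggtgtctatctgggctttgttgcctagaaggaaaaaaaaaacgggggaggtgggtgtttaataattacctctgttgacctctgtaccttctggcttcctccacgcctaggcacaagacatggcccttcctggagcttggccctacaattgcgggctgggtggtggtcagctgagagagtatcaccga
Slc7a11: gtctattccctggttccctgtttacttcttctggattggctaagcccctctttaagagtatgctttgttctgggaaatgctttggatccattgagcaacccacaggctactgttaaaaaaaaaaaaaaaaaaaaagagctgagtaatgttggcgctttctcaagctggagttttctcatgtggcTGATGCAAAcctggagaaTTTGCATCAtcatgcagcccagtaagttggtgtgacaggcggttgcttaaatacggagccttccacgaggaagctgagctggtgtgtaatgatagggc
The Slc15a1 sequence lies at chr14:121505205-121505504 on the minus strand, that of Slc1a1 at chr19:28834885-28835184 on the plus strand and that of Slc3a1 at chr17:85028097-85028396 on the plus strand. The Slc7a9 sequence lies at chr7:35448842-35449141 on the plus strand and that of Slc7a11 at chr3:50443564-50443863 on the minus strand. Both windows lie inside the RefSeq gene spans (chr7:35448727-35466034 and chr3:50364936-50499087) and not at their outermost start. Another Slc7a9 window, chr7:35448929-35449228, held no searched motif and is not shown. No searched motif was in the Slc15a1 or Slc1a1 window. The Slc3a1 window held CAAAGTCCA, which was in 1 of the 34 members and in 0.555% of the 27025 genes with a promoter. CAAAGTC, which every CAAAGTCCA contains, was in Slc3a1 and Slc7a7, 5.88% of the members against 5.0% of genes. AGATAA was in 5 members (Slc15a2, Slc38a4, Slc3a1, Slc7a7 and Slc7a9), 14.7% against 12.7% of genes. TTTATNG was in Slc3a1 and Slc7a15, 5.88% against 12.5% of genes, and TTTATG in Slc7a15, 2.94% against 13.6%. TGATGNAAN was in Slc1a4, Slc7a11 and Slc7a7, 8.82% against 4.5% of genes; in Slc7a11 it occurred on both strands. TGATGCAAT, which TGATGNAAN includes, was in none of the 34 members and in 0.222% of genes. A match describes the letters in the window and is no evidence of binding.

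**Figure D1:**
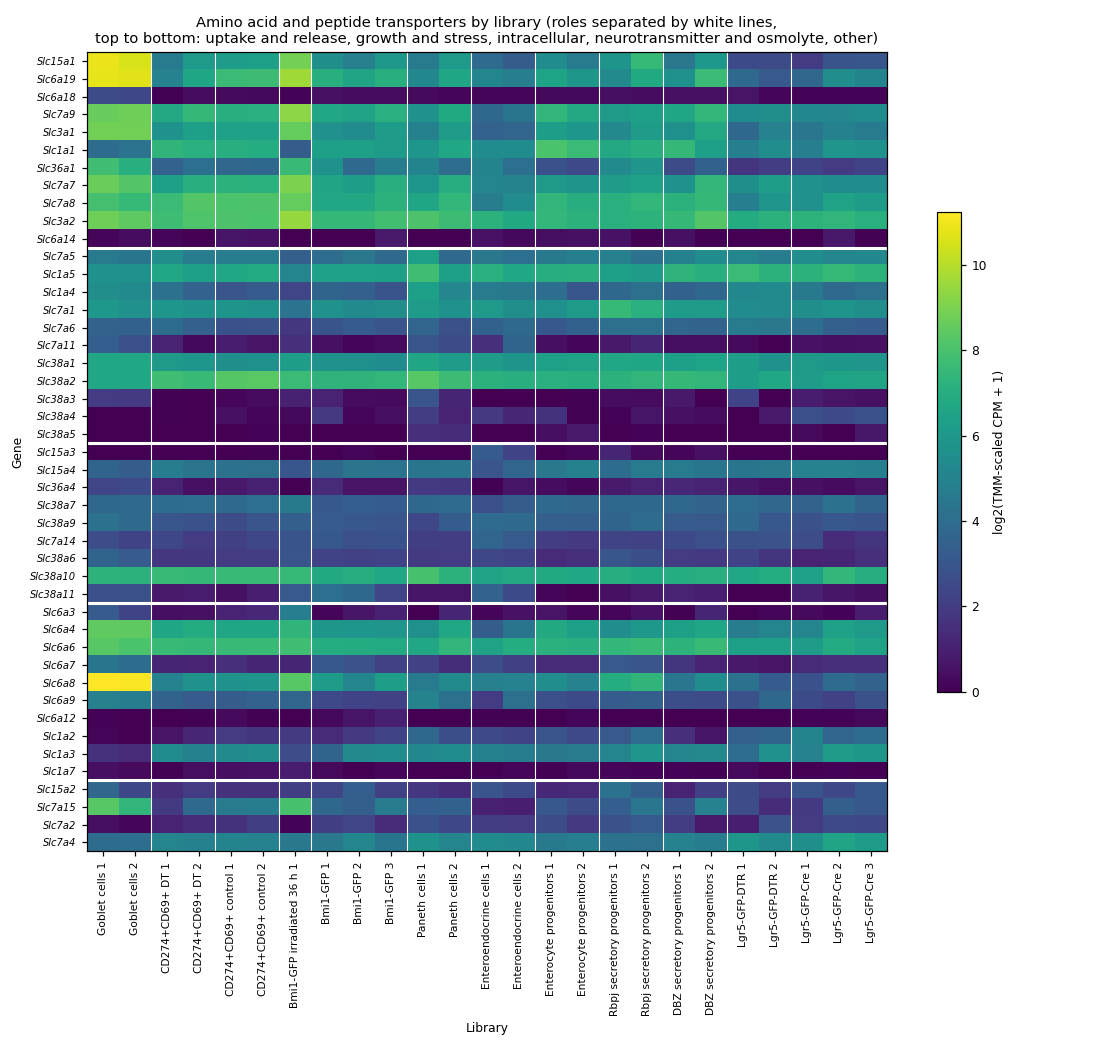
Level of 45 of the 46 transporters (rows, grouped by role) in each of the 25 libraries (columns), as log2 of TMM-scaled CPM + 1. The 2 Goblet libraries and the irradiated Bmi1-GFP library are brightest for Slc15a1, Slc6a19 and Slc6a8, and Slc1a1 is dim in these 3 libraries.

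Goblet libraries had the highest mean for 19 of the 45 transporters tested, more than any other of the 11 replicated groups; next came Lgr5-GFP-Cre and Paneth libraries with 5 each. Against CD274+CD69+ control cells, 22 transporters were higher and 8 lower in Goblet libraries by edgeR's quasi-likelihood test at an adjusted p below 0.05. That is 30 of 45, where 51.2% of all genes tested were called (21.8% higher, 29.5% lower). Among 11 uptake and release carriers, 7 were higher and 1 lower, with a median log2 fold change of 1.59, against -0.10 over all genes.

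Slc15a1 stood at 1938 and 1515 CPM in Goblet libraries, against 72.6 and 81.6 in CD274+CD69+ control libraries (log2 fold change 4.48, SE 0.70, adjusted p = 3.16e-05). Slc6a19 stood at 1832 and 1711 CPM in Goblet libraries, against 202 and 211 in control libraries (log2 fold change 3.10, SE 0.71, adjusted p = 0.00126). Both apical carriers were far above every unirradiated library of any other group. Slc3a1 and Slc7a9, the heavy and light chains of the cystine carrier, rose together. Slc3a1 was at 464 and 467 CPM in Goblet libraries, against 84.5 and 85.5 in control libraries (log2 fold change 2.45, SE 0.46, adjusted p = 0.000218). Slc7a9 was at 394 and 439.5 CPM in Goblet libraries, against 137 and 140.4 in control libraries (log2 fold change 1.59, SE 0.35, adjusted p = 0.000954). The lysosomal and apical proton-coupled carrier Slc36a1 was at 218 and 130.5 CPM in Goblet libraries, against 12.1 and 12.9 in control libraries (log2 fold change 3.80, SE 0.56, adjusted p = 1.64e-05).

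On the release side, Slc7a7 was at 409 and 301 CPM in Goblet libraries, against 148 and 144 in control libraries (log2 fold change 1.28, SE 0.42, adjusted p = 0.0169). That call was lost without control replicate 1 or without Goblet replicate 1. Its partner Slc3a2 stood at 433 and 352 CPM in Goblet libraries, against 272 and 265 in control libraries, and was not called (log2 fold change 0.55, SE 0.24, adjusted p = 0.0596). The other light chain, Slc7a8, was at 245 and 187 CPM in Goblet libraries, against 268 and 275 in control libraries, and was not called (log2 fold change -0.33, SE 0.35, adjusted p = 0.442). Slc6a18, a neutral amino acid carrier best known from kidney, was at 5.20 and 4.34 CPM in Goblet libraries, against 0.205 and 0.183 in control libraries (log2 fold change 4.57, SE 0.79, adjusted p = 8.95e-05). Slc1a1 was the 1 carrier of this group that fell. It stood at 14.9 and 18.2 CPM in Goblet libraries, against 136 and 124 in control libraries (log2 fold change -2.97, SE 0.39, adjusted p = 4.32e-06), and its groups did not overlap.

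The enterocyte marker sum moved the same way, 105181 and 104307 CPM in Goblet libraries against 17030.5 and 17191 CPM in control libraries, with 6 of 12 markers higher and 0 lower. All 8 enteroendocrine and all 5 tuft markers, 6 of 7 goblet and 3 of 7 immune markers were also higher and none lower, while 5 of 6 stem and all 6 proliferation markers were lower. The part of these markers in the change of the carriers was not tested. The goblet marker sum was 60229.8 and 98901 CPM in Goblet libraries and 10742 and 11758 CPM in control libraries. Of the brush border peptidases and chaperones that work beside these carriers, 10 of 12 were higher and 0 lower in Goblet libraries. Anpep, an aminopeptidase, averaged 12645 ± 4936 CPM in Goblet libraries and 1199.8 ± 2.03 CPM in control libraries (SD, n = 2 each). Scaling by DESeq2 size factors shifted the median gene by 0.277 on the log2 scale in this comparison, and 24 transporters were then higher and 7 lower.

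**Figure D2:**
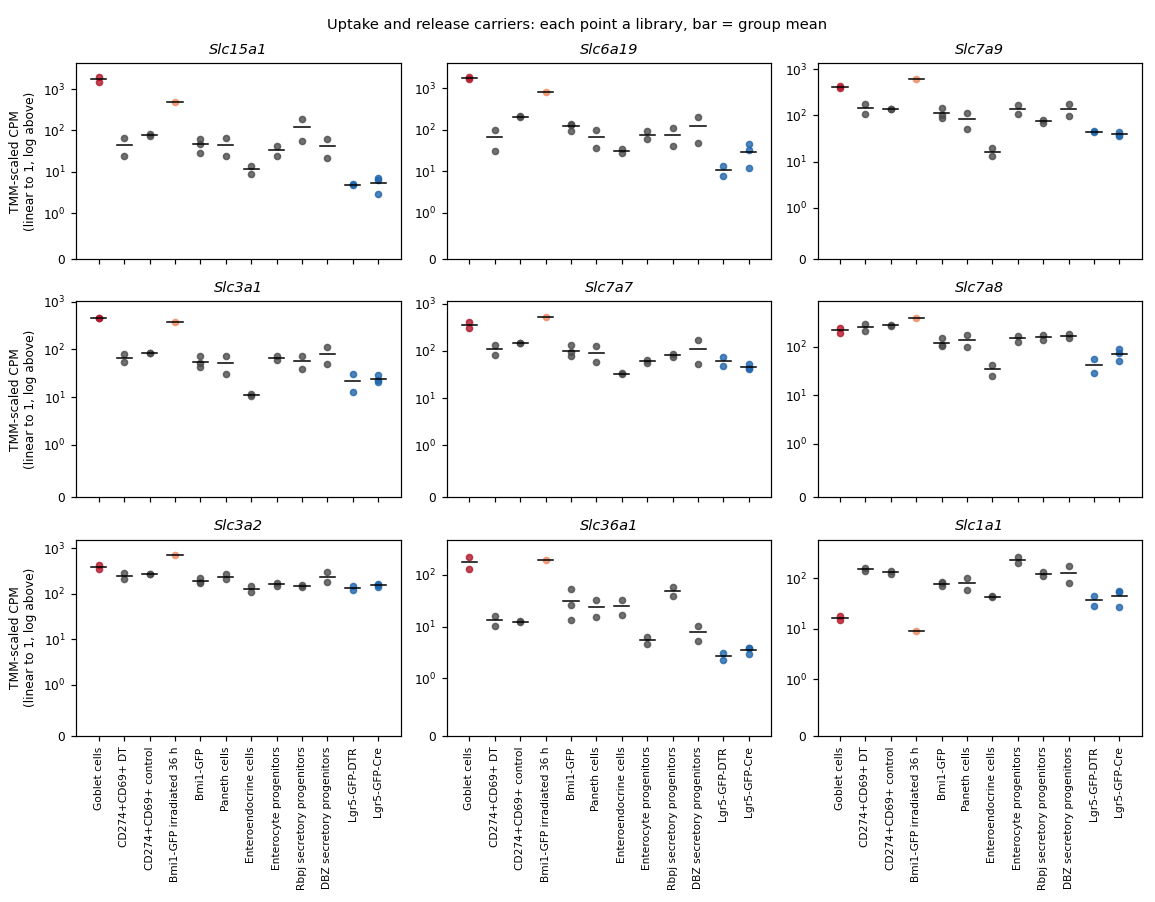
Level of 9 uptake and release carriers in every library (points; TMM-scaled CPM, linear to 1 and logarithmic above), by group, with bars at group means; the irradiated group has 1 library. Goblet points are highest among replicated groups for Slc15a1, Slc6a19, Slc7a9, Slc3a1, Slc7a7, Slc3a2 and Slc36a1, and lowest for Slc1a1.

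Goblet libraries were also set against Paneth libraries, the other mature secretory sort, whose labels name no DBZ. Here 17 transporters were higher and 10 lower, 27 of 45, where 53.8% of all genes were called (23% higher, 30.8% lower). Of 11 uptake and release carriers, 8 were higher and 1, Slc1a1, was lower. Slc15a1 was at 23.8 and 67.4 CPM and Slc6a19 at 36.7 and 100.3 CPM in the Paneth libraries. The fitted differences were log2 fold change 5.24, SE 0.72, adjusted p = 8.53e-06 for Slc15a1 and log2 fold change 4.69, SE 0.76, adjusted p = 4.85e-05 for Slc6a19. Slc1a1 was at 58.6 and 103 CPM in Paneth libraries (log2 fold change -2.29, SE 0.38, adjusted p = 5.52e-05). The enterocyte markers ran the same way, 11 of 12 higher and 0 lower in Goblet libraries. Of 7 goblet and 8 enteroendocrine markers 5 each were higher, and of 7 immune markers 4 were higher and 1 lower, while 5 of 6 Paneth, 5 of 6 stem and all 6 proliferation markers were lower. Their part was not tested.

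The comparisons that follow share the 3 Lgr5-GFP-Cre libraries. In these stem-cell libraries Slc15a1 was at 2.89, 6.50 and 7.03 CPM, Slc6a19 at 12.0, 45.4 and 32.4 CPM and Slc36a1 at 3.86, 2.96 and 3.80 CPM. The cystine carrier chains were at 37.5, 35.8 and 43.7 CPM for Slc7a9 and 20.4, 29.5 and 22.8 CPM for Slc3a1. Slc1a1 was at 26.7, 57.1 and 52.6 CPM and was lowest in replicate 1. Slc7a7 was at 53.3, 42.5 and 41.4 CPM, Slc7a8 at 50.2, 89.4 and 73.0 CPM and Slc3a2 at 152, 166 and 138 CPM. The Lgr5 libraries held the least Slc15a1 and Slc36a1 of all groups, with those of Lgr5-GFP-DTR close to those of Lgr5-GFP-Cre.

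In CD274+CD69+ control cells, 15 transporters were higher and 7 lower than in Lgr5-GFP-Cre cells, where 45.3% of all genes were called (24% higher, 21.3% lower). Of 11 uptake and release carriers 9 were higher and 0 lower, with a median log2 fold change of 1.81 against 0 over all genes. The rise was log2 fold change 3.80, SE 0.59, adjusted p = 6.24e-05 for Slc15a1 and log2 fold change 2.78, SE 0.61, adjusted p = 0.00114 for Slc6a19. Slc7a8, the basolateral exchanger, had its highest mean here among the replicated groups, 272 ± 5.20 CPM in control cells and 70.9 ± 19.7 CPM in Lgr5-GFP-Cre cells (log2 fold change 1.94, SE 0.31, adjusted p = 8.59e-05). Enterocyte markers moved with these carriers, 10 of 12 higher and 0 lower, and summed to 17030.5 and 17191 CPM in control cells and 3662, 5395 and 6071 CPM in Lgr5-GFP-Cre cells. Of 7 goblet markers 4 were higher, while all 6 stem and 5 of 6 Paneth markers were lower, and their part was not tested.

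Bmi1-GFP cells were higher than Lgr5-GFP-Cre cells for 15 transporters and lower for 8, 23 of 45, a share near the 50.4% of all genes called (27.9% higher, 22.5% lower). The uptake and release carriers were again on one side, 9 of 11 higher and 0 lower. Slc36a1 was at 54.0, 13.4 and 25.7 CPM in Bmi1-GFP libraries (log2 fold change 3.13, SE 0.46, adjusted p = 3.81e-05). Slc15a1 was at 47.7, 28.9 and 62.7 CPM in Bmi1-GFP libraries (log2 fold change 3.07, SE 0.55, adjusted p = 0.000237) and Slc6a19 at 138, 93.5 and 131 CPM (log2 fold change 2.01, SE 0.56, adjusted p = 0.00631). None of the 3 Bmi1-GFP libraries overlapped the Lgr5-GFP-Cre libraries for these genes. Slc7a9 was at 103, 88.3 and 141 CPM, Slc3a1 at 51.1, 42.4 and 73.4 CPM and Slc1a1 at 79.2, 82.6 and 69.3 CPM in Bmi1-GFP libraries. Slc7a7 was at 94.4, 76.8 and 134 CPM, Slc7a8 at 103, 107 and 147 CPM and Slc3a2 at 178, 176 and 227 CPM. The Slc1a1 and Slc7a8 calls were lost under 5 and 4 alternatives, most of them leaving out 1 library. The enterocyte marker sum was 11859, 7608 and 19787 CPM in Bmi1-GFP libraries, with 9 of 12 markers higher than in Lgr5-GFP-Cre cells. All 8 enteroendocrine, 6 of 7 immune and 4 of 5 tuft markers were also higher and none lower, with median log2 fold changes of 5.05, 4.99 and 4.81. All 6 stem and 5 of 6 Paneth markers were lower and none higher, and the part of all these markers was not tested.

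Enteroendocrine cells, the hormone-secreting lineage, had the lowest means of any replicated group for 5 uptake and release carriers: Slc7a9, Slc3a1, Slc7a7, Slc7a8 and Slc3a2. Against Lgr5-GFP-Cre cells 11 transporters were higher and 10 lower, where 45.9% of all genes were called (25.5% higher, 20.4% lower). Of 11 uptake and release carriers 3 were lower and 1 higher. Slc7a9 stood at 12.9 and 19.5 CPM in enteroendocrine libraries (log2 fold change -1.26, SE 0.33, adjusted p = 0.00499), Slc3a1 at 10.5 and 11.8 CPM (log2 fold change -1.11, SE 0.43, adjusted p = 0.0404) and Slc7a8 at 25.2 and 42.0 CPM (log2 fold change -1.07, SE 0.33, adjusted p = 0.0129). All of these lay below every Lgr5-GFP-Cre library, but each call was lost without enteroendocrine replicate 1. Slc36a1 was the carrier that rose, at 33.1 and 16.4 CPM in enteroendocrine libraries (log2 fold change 2.80, SE 0.48, adjusted p = 0.000174). Slc15a1 was at 14.1 and 9.03 CPM, Slc6a19 at 34.8 and 27.4 CPM and Slc1a1 at 42.9 and 43.8 CPM in enteroendocrine libraries, none of them called. Slc7a7 was at 33.4 and 31.7 CPM and Slc3a2 at 147 and 112 CPM there, also not called. The enterocyte sum was 2696 and 3339 CPM in enteroendocrine libraries, with 4 of 12 markers lower than in Lgr5-GFP-Cre cells, and all 5 tuft, all 8 enteroendocrine and 6 of 7 goblet markers were higher. Of 7 immune markers 5 were higher and 1 lower, and 5 of 6 stem and 5 of 6 proliferation markers were lower. Their part was not tested.

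Bmi1-GFP cells and enteroendocrine cells shared high Slc36a1 but parted on the cystine carrier. Bmi1-GFP cells were higher for 9 transporters and lower for 5, where 24.7% of all genes were called (12.6% higher, 12.1% lower), and 6 of 11 uptake and release carriers were higher. The difference was log2 fold change 2.77, SE 0.36, adjusted p = 9.79e-05 for Slc7a9, log2 fold change 2.31, SE 0.45, adjusted p = 0.00174 for Slc3a1 and log2 fold change 1.82, SE 0.34, adjusted p = 0.00142 for Slc7a8. Of the marker lists, 11 of 12 enterocyte and 3 of 6 proliferation markers were higher and none lower in Bmi1-GFP cells, with a median log2 fold change of 2.70 for the enterocyte list. All 6 Paneth and 4 of 5 tuft markers were lower and none higher, and the part of these markers was not tested. The count of called uptake carriers was 3 without either enteroendocrine library. Slc6a9 was among the 5 lower genes, but its fold change turned positive without enteroendocrine replicate 2. Paneth cells differed from enteroendocrine cells in the same carriers, with 16 transporters higher and 4 lower, where 29.4% of all genes were called (14% higher, 15.4% lower), and 6 of 11 uptake carriers higher. Slc7a9 was at 51.4 and 113 CPM in Paneth libraries (log2 fold change 2.34, SE 0.37, adjusted p = 0.000386), Slc7a8 at 98.7 and 173 CPM (log2 fold change 2.01, SE 0.36, adjusted p = 0.000955) and Slc3a1 at 30.1 and 72.0 CPM (log2 fold change 2.19, SE 0.47, adjusted p = 0.00279). Enterocyte markers moved with these carriers, 9 of 12 higher and 0 lower in Paneth cells, with a median log2 fold change of 2.59. All 8 enteroendocrine and 3 of 5 tuft markers were lower and none higher, 4 of 6 Paneth and 3 of 7 goblet markers were higher and none lower, and their part was not tested. The uptake count was 3 without enteroendocrine replicate 2 and also 3 without Paneth replicate 2, the library with the larger enterocyte sum (6361 and 14293 CPM in the 2 Paneth libraries).

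Paneth cells, which secrete antimicrobial proteins, were higher than Lgr5-GFP-Cre cells for 19 transporters and lower for 1, Slc15a2, where 40.7% of all genes were called (21.6% higher, 19.1% lower). Of the uptake and release carriers 8 of 11 were higher and 0 lower. Slc36a1 was at 32.2 and 15.2 CPM in Paneth libraries (log2 fold change 2.73, SE 0.49, adjusted p = 0.000274), Slc7a7 at 59.5 and 126 CPM (log2 fold change 1.02, SE 0.38, adjusted p = 0.0383) and Slc3a2 at 271 and 207 CPM (log2 fold change 0.65, SE 0.21, adjusted p = 0.0207). The 2 libraries differed from each other, and the uptake count was 3 without Paneth replicate 2 or Lgr5-GFP-Cre replicate 3, 4 without Lgr5-GFP-Cre replicate 1 and 4 when the Paneth and Lgr5-GFP-Cre libraries were fitted alone. Of 12 enterocyte markers 4 were higher than in Lgr5-GFP-Cre cells and 0 lower. All 7 goblet, all 6 Paneth, 4 of 5 tuft and 4 of 8 enteroendocrine markers were higher and none lower, with median log2 fold changes of 2.60 for the goblet and 4.85 for the tuft list. Of the stem markers 3 of 6 were lower, and of the proliferation markers 4 of 6 were lower and 1 higher. The part of these markers was not tested.

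**Figure D3:**
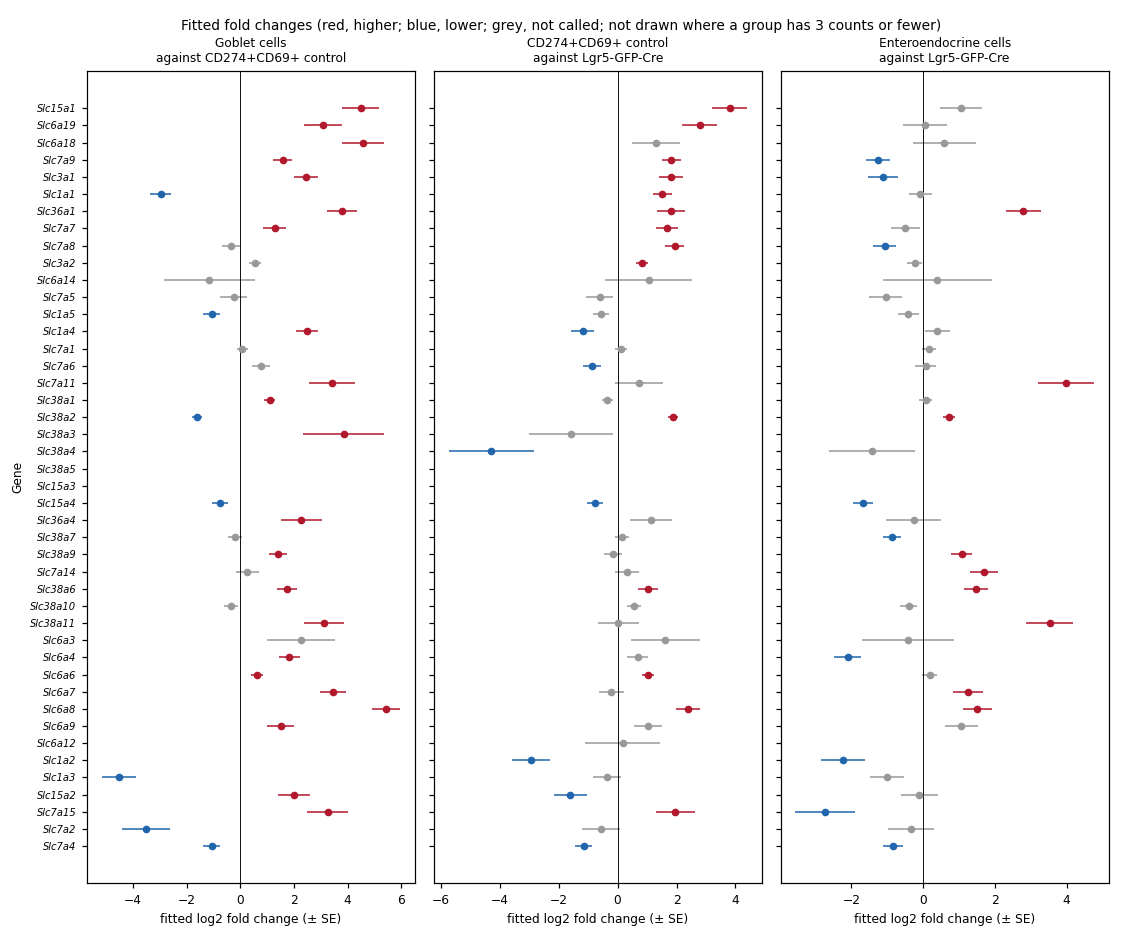
Fitted log2 fold change (± SE) of 44 of the 45 transporters tested, ordered by role, in 3 comparisons; red is higher, blue lower and grey not called, and genes with 3 counts or fewer in a group are not drawn. Slc15a1 and Slc6a19 lie right of 0 in Goblet and CD274+CD69+ control cells, Slc1a1 lies left of 0 in Goblet cells, and Slc7a9, Slc3a1 and Slc7a8 lie left of 0 in enteroendocrine cells.

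Unsorted crypts of mice without Atoh1 (enterocyte progenitors) were higher than Lgr5-GFP-Cre cells for 9 transporters and lower for 5, 14 of 45, where 39.4% of all genes were called (22.2% higher, 17.2% lower). Slc1a1 had its highest level of the series here, 264 and 200.1 CPM in enterocyte progenitors (log2 fold change 2.35, SE 0.32, adjusted p = 2.95e-05), above every library of the other groups. Slc15a1 was at 43.2 and 24.6 CPM (log2 fold change 2.61, SE 0.58, adjusted p = 0.00184), Slc7a9 at 169 and 109 CPM (log2 fold change 1.83, SE 0.31, adjusted p = 0.000214) and Slc3a1 at 74.6 and 58.8 CPM (log2 fold change 1.46, SE 0.40, adjusted p = 0.00761). Slc7a8 was at 168 and 126 CPM (log2 fold change 1.05, SE 0.31, adjusted p = 0.0125). None of the 14 called transporters, these 5 uptake carriers among them, overlapped Lgr5-GFP-Cre libraries, so this adds nothing to the calls. The Slc3a1 and Slc7a8 calls were lost without enterocyte progenitor replicate 1. Slc6a19 was at 91.8 and 61.6 CPM, Slc36a1 at 6.17 and 4.67 CPM, Slc7a7 at 64.6 and 55.1 CPM and Slc3a2 at 173 and 148 CPM, none of them called. The enterocyte sum was 10441 and 6859 CPM in enterocyte progenitors, with 3 of 12 markers higher than in Lgr5-GFP-Cre cells. All 5 tuft, all 7 immune and 3 of 5 stromal and endothelial markers were higher and none lower, with median log2 fold changes of 5.65 for the tuft and 3.05 for the immune list. All 7 goblet, 6 Paneth, 8 enteroendocrine and 6 stem markers were lower, and the part of all these markers was not tested.

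DBZ secretory progenitors were higher than Lgr5-GFP-Cre cells for 16 transporters and lower for 5, where 36.7% of all genes were called (21% higher, 15.7% lower); 9 of 11 uptake and release carriers were higher. The 2 DBZ libraries disagreed, and replicate 2, with the larger enterocyte sum (4793 and 21354 CPM), had the higher value of every uptake carrier given here except Slc1a1. Slc15a1 was at 21.2 and 62.9 CPM, Slc6a19 at 49.2 and 200.4 CPM and Slc3a1 at 49.1 and 111 CPM in DBZ libraries. Slc7a7 was at 52.9 and 171 CPM, Slc7a9 at 96.9 and 173 CPM and Slc3a2 at 179 and 298 CPM. Slc1a1 ran the other way between these libraries, at 176 and 80.4 CPM. Slc7a8 was at 147 and 179 CPM and Slc36a1 at 5.14 and 10.4 CPM. Without DBZ replicate 2, 3 uptake carriers and 7 transporters in all were called. Against Lgr5-GFP-Cre cells 5 of 12 enterocyte, 5 of 7 goblet, 3 of 5 tuft and 3 of 7 immune markers were higher and none lower, and all 6 stem and 5 of 6 Paneth markers were lower. The part of these markers was not tested.

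Enterocyte progenitors and DBZ secretory progenitors, the 2 crypt preparations biased to opposite fates, differed in 1 transporter, where 2.46% of all genes were called (0.573% higher, 1.89% lower). Slc38a11 was lower in enterocyte progenitors, with 3 counts there against 57 in DBZ secretory progenitors (edgeR adjusted p = 0.0237). No uptake carrier was called by edgeR or by DESeq2's test. At an unadjusted p below 0.05 were 3 of 11, a larger share than the 11.8% of all genes. The median log2 fold change was -0.31 for the 11 against 0.01 over all genes. Slc1a1 was at 232 ± 44.9 CPM in enterocyte progenitors and 128 ± 67.9 CPM in DBZ secretory progenitors (SD, n = 2 each) and was not called (log2 fold change 0.85, SE 0.35, adjusted p = 0.307). Leaving out DBZ replicate 1 gave 2 called uptake carriers. All 8 enteroendocrine, 7 goblet and 6 Paneth markers were lower in enterocyte progenitors, and their part was not tested.

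Rbpj secretory progenitors, in which the Notch cofactor Rbpj was deleted, were higher than DBZ secretory progenitors for 7 transporters and lower for 2, where 24.7% of all genes were called (12.9% higher, 11.9% lower). The library kit differed with the group (TruSeq in both Rbpj libraries), so kit and group cannot be told apart. Slc7a1, the CAT1 carrier of arginine and lysine, was at 183 and 141 CPM in Rbpj libraries, against 71.9 and 72.8 in DBZ libraries (log2 fold change 1.16, SE 0.22, adjusted p = 0.000771). Slc36a1 was at 39.4 and 56.9 CPM in Rbpj libraries (log2 fold change 2.64, SE 0.53, adjusted p = 0.00146), above both DBZ libraries. Slc15a1 was at 54.7 and 186 CPM, Slc6a19 at 40.2 and 113 CPM, Slc3a1 at 38.5 and 74.1 CPM and Slc7a9 at 67.5 and 80.8 CPM in Rbpj libraries, not called. Slc1a1 was at 108 and 131 CPM, Slc7a7 at 74.4 and 86.8 CPM, Slc7a8 at 139 and 171 CPM and Slc3a2 at 141 and 156 CPM there. Of these, Slc3a2 was lower than in DBZ libraries (log2 fold change -0.68, SE 0.24, adjusted p = 0.0411), a call lost under 6 alternatives, DESeq2 size factors among them. The uptake count was 2 here and 4 without DBZ replicate 1. The glutamine carrier Slc1a5 was lower too, at 80.4 and 70.4 CPM in Rbpj libraries, against 158 and 138 in DBZ libraries (log2 fold change -0.97, SE 0.31, adjusted p = 0.0265). That call was lost on leaving out any of the 4 libraries.

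Carriers that supply growing or stressed cells followed no single direction. In the Goblet libraries 4 of 11 were higher and 2 lower than in CD274+CD69+ control cells, a share near the 51.2% of all genes called (21.8% higher, 29.5% lower). Slc38a2, the SNAT2 carrier of small neutral amino acids, was at 102 and 105 CPM in Goblet libraries, against 308 and 327 in control libraries (log2 fold change -1.62, SE 0.20, adjusted p = 2.4e-06). Slc1a5 was at 51.4 and 53.8 CPM in Goblet libraries, against 104 and 116 in control libraries (log2 fold change -1.07, SE 0.31, adjusted p = 0.00765). Slc1a4, the ASCT1 carrier of serine and alanine, rose, at 46.5 and 40.5 CPM in Goblet libraries, against 6.73 and 8.66 in control libraries (log2 fold change 2.50, SE 0.41, adjusted p = 6.19e-05). Slc38a1 (SNAT1) was at 105 and 101 CPM in Goblet libraries, against 47.7 and 48.6 in control libraries (log2 fold change 1.10, SE 0.20, adjusted p = 0.000141). The large neutral carrier Slc7a5 was at 23.5 and 19.4 CPM in Goblet libraries, against 25.4 and 25.1 in control libraries, and was not called. Slc7a1 was at 63.6 and 49.9 CPM in Goblet libraries, against 55.6 and 51.8 in control libraries, not called either.

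Slc38a2 was low in stem cells, at 74.2, 90.8 and 94.2 CPM in Lgr5-GFP-Cre libraries, and higher in 6 groups set against them. It was at 317 and 207 CPM in Paneth libraries (log2 fold change 1.60, SE 0.18, adjusted p = 3.07e-06) and rose in CD274+CD69+ control libraries too (log2 fold change 1.88, SE 0.18, adjusted p = 3.74e-07). It was at 159, 157 and 171 CPM in Bmi1-GFP libraries, 150.1 and 135 CPM in enteroendocrine libraries, 141 and 134 CPM in enterocyte progenitors and 177 and 170.1 CPM in DBZ libraries. All lay above every Lgr5-GFP-Cre library. In Rbpj libraries it stood at 147 and 168 CPM.

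Slc7a5 (leucine and other large neutral amino acids), Slc1a5 (glutamine) and Slc1a4 were lower in Bmi1-GFP cells than in Lgr5-GFP-Cre cells. Slc7a5 was at 15.1, 20.7 and 13.7 CPM in Bmi1-GFP libraries, against 44.6, 34.7 and 36.8 in Lgr5-GFP-Cre libraries (log2 fold change -1.23, SE 0.41, adjusted p = 0.0191). Slc1a5 was at 84.8, 85.1 and 82.0 CPM in Bmi1-GFP libraries, against 149.8, 186 and 152 in Lgr5-GFP-Cre libraries (log2 fold change -0.95, SE 0.25, adjusted p = 0.00438). Slc1a4 was at 11.3, 10.0 and 6.60 CPM in Bmi1-GFP libraries, against 22.5, 13.3 and 17.0 in Lgr5-GFP-Cre libraries (log2 fold change -0.92, SE 0.33, adjusted p = 0.0259). Proliferation markers summed to 575, 708 and 659 CPM in Bmi1-GFP and 1078, 1025 and 1020.1 CPM in Lgr5-GFP-Cre libraries, and their part was not tested. The Slc7a5 and Slc1a4 calls were each lost on leaving out 3 of the 6 libraries in turn. In CD274+CD69+ control cells Slc1a4 was lower as well (log2 fold change -1.19, SE 0.38, adjusted p = 0.0152), a call lost without Lgr5-GFP-Cre replicate 1 or control replicate 1.

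In Paneth cells Slc1a4 was at 81.4 and 35.5 CPM, higher than in Lgr5-GFP-Cre cells (log2 fold change 1.73, SE 0.35, adjusted p = 0.000816) and than in enteroendocrine cells at 24.8 and 21.5 CPM (log2 fold change 1.33, SE 0.39, adjusted p = 0.0179). The call against enteroendocrine cells was lost under 4 of 9 alternatives, leaving out either enteroendocrine library among them. Slc1a5 was at 223 and 79.4 CPM and Slc7a5 at 81.8 and 13.5 CPM in Paneth libraries, with replicate 1 far above replicate 2, and neither was called against Lgr5-GFP-Cre cells. In enteroendocrine libraries Slc1a5 was at 141 and 104 CPM and Slc7a5 at 21.3 and 16.3 CPM. Slc38a1 was at 98.1 and 71.4 CPM in Paneth, 74.4 and 55.0 CPM in enteroendocrine, 52.2, 48.5 and 43.7 CPM in Bmi1-GFP and 65.0, 61.2 and 57.6 CPM in Lgr5-GFP-Cre libraries. Slc38a1 was lowest in Bmi1-GFP libraries, below every library of the other 3 groups. Slc7a1 was at 74.0 and 53.6 CPM in Paneth, 65.0 and 46.6 CPM in enteroendocrine, 51.8, 41.0 and 46.0 CPM in Bmi1-GFP and 47.3, 55.1 and 46.3 CPM in Lgr5-GFP-Cre libraries.

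In the unsorted crypts Slc7a5 was at 22.5 and 27.6 CPM in enterocyte progenitors, 28.7 and 17.4 CPM in Rbpj libraries and 29.6 and 41.8 CPM in DBZ libraries. Slc1a4 was at 15.7 and 7.12 CPM in enterocyte progenitors, 12.6 and 16.8 CPM in Rbpj libraries and 10.4 and 12.8 CPM in DBZ libraries. Over these libraries Slc7a5 ran from 17.4 to 41.8 CPM and Slc1a4 from 7.12 to 16.8 CPM, and none of the comparisons of these preparations called either gene. Slc1a5 was at 128 and 131 CPM and Slc7a1 at 48.4 and 69.6 CPM in enterocyte progenitors. Slc38a1 was at 84.7 and 89.3 CPM in enterocyte progenitors, 107 and 101 CPM in Rbpj libraries and 80.5 and 91.3 CPM in DBZ libraries. It was higher in enterocyte progenitors than in Lgr5-GFP-Cre cells (log2 fold change 0.51, SE 0.18, adjusted p = 0.0294), a call lost under 7 alternatives, DESeq2 size factors among them.

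Slc7a11, the xCT exchanger that brings in cystine for glutathione, was near 0 in most crypt groups and raised in 3 secretory sorts. It stood at 9.14 and 5.74 CPM in Goblet, 6.85 and 4.87 CPM in Paneth and 1.93 and 11.3 CPM in enteroendocrine libraries. In the other groups it was at 0.873 and 0.504 CPM in CD274+CD69+ control, 0.411, 0.104 and 0.262 CPM in Bmi1-GFP and 0.482, 0.322 and 0.437 CPM in Lgr5-GFP-Cre libraries. In unsorted crypts it was at 0.361 and 0.127 CPM in enterocyte progenitors, 0.691 and 1.24 CPM in Rbpj libraries and 0.338 and 0.325 CPM in DBZ libraries. It rose in Goblet libraries against control (log2 fold change 3.43, SE 0.87, adjusted p = 0.0029), in Paneth libraries against Lgr5-GFP-Cre (log2 fold change 3.80, SE 0.78, adjusted p = 0.000882) and in enteroendocrine libraries against Lgr5-GFP-Cre (log2 fold change 3.98, SE 0.78, adjusted p = 0.000492). The enteroendocrine mean rests mainly on replicate 2. Of 22 amino acid response genes tested, 9 were higher and 4 lower in Paneth against Lgr5-GFP-Cre cells, where 40.7% of all genes were called. In Goblet against control cells 5 were higher and 6 lower, where 51.2% of all genes were called, and in enteroendocrine against Lgr5-GFP-Cre cells 4 were higher and 6 lower, where 45.9% were called. Chac1, a glutathione-degrading enzyme of that list, averaged 53.6 ± 64.5 CPM in Paneth cells and 3.51 ± 1.26 CPM in Lgr5-GFP-Cre cells (SD, n = 2 and 3; adjusted p = 0.00032). Its SD in Paneth cells exceeds its mean, so the 2 Paneth libraries differed widely and the mean rests mainly on 1 of them.

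**Figure D4:**
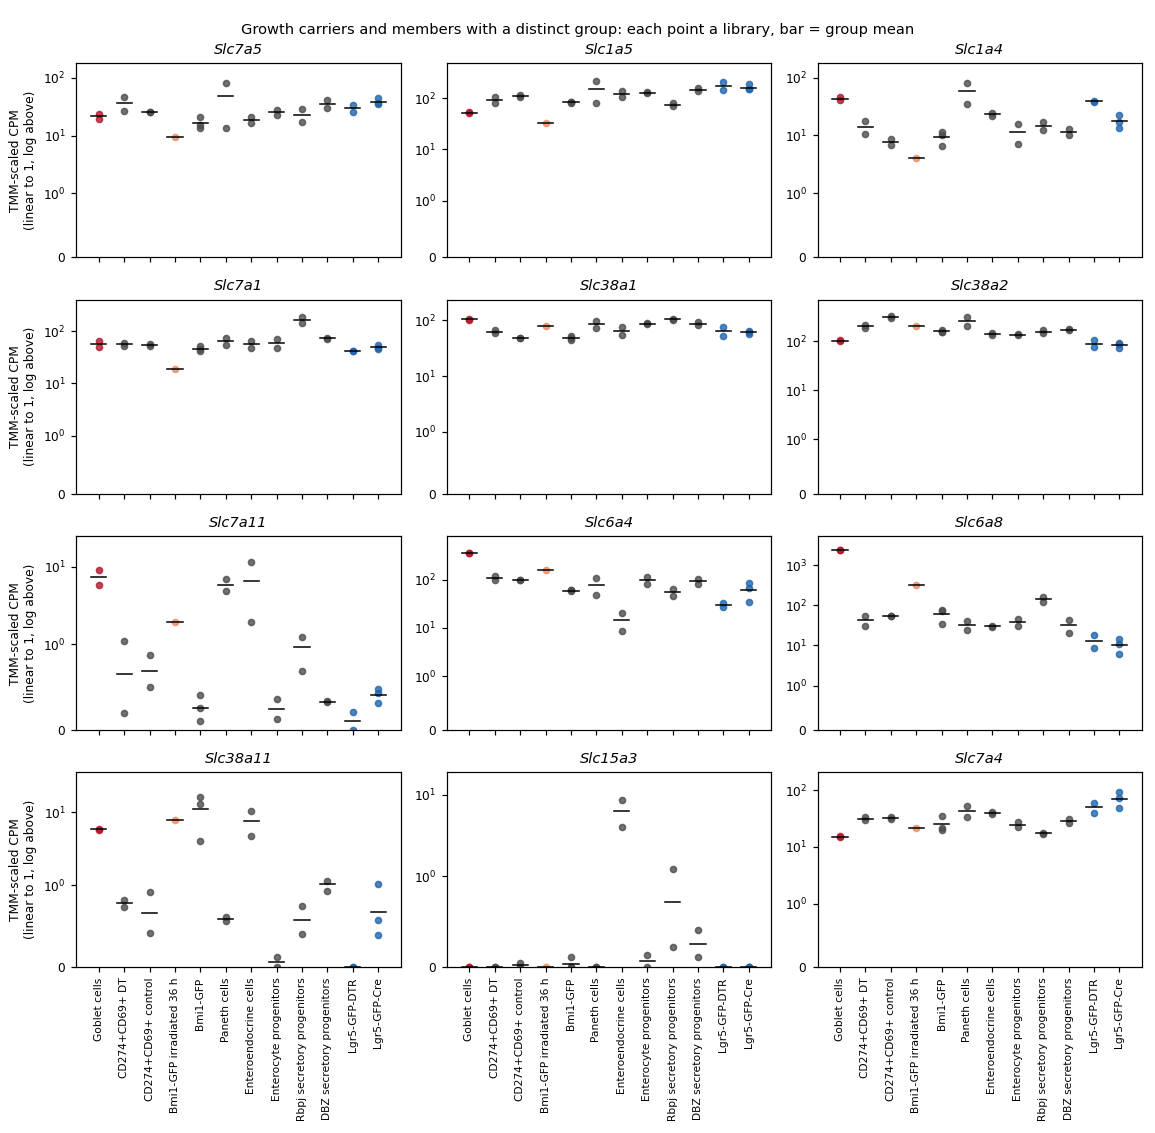
Level of 7 growth and stress carriers and 5 other transporters in every library (points; TMM-scaled CPM, linear to 1 and logarithmic above), by group, with bars at group means. Slc7a11 is raised in Goblet, Paneth and enteroendocrine libraries, Slc6a8 in Goblet libraries, Slc38a11 in Bmi1-GFP, enteroendocrine, Goblet and irradiated libraries, and Slc15a3 in enteroendocrine libraries.

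Of the 9 lysosomal, endosomal and other intracellular members, 5 were higher and 2 lower in enteroendocrine than in Lgr5-GFP-Cre cells. Of all genes 45.9% were called in this comparison (25.5% higher, 20.4% lower). Slc15a3, an endolysosomal histidine and peptide carrier known from immune cells, had 146 and 103 counts in the enteroendocrine libraries (8.55 and 3.96 CPM), against 0 counts in all 3 Lgr5-GFP-Cre and both Paneth libraries (adjusted p = 0.000468 and 0.00504). The highest library elsewhere was Rbpj replicate 1 at 1.22 CPM. The call against Paneth cells and that of Bmi1-GFP against enteroendocrine cells were lost with DESeq2's test. Lyz2, the lysozyme of macrophages, averaged 216 ± 80.9 CPM in enteroendocrine and 4.06 ± 0.238 CPM in Lgr5-GFP-Cre libraries (SD, n = 2 and 3). Lyz2 is 1 of 7 immune markers, and not all of these were higher in enteroendocrine libraries. In each enteroendocrine library 1 of the 7 had 0 counts. The 7 immune markers summed to 436 and 289.6 CPM in enteroendocrine and 13.1, 17.2 and 17.6 CPM in Lgr5-GFP-Cre libraries, and their part was not tested. In Bmi1-GFP libraries Slc15a3 had 2 counts in 1 library and 0 in the others (adjusted p = 0.00266 against enteroendocrine cells). The immune markers summed to 935, 545 and 372 CPM in those Bmi1-GFP libraries, more than in either enteroendocrine library.

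Slc38a11 was at 16.0, 12.8 and 4.06 CPM in Bmi1-GFP and 10.5 and 4.77 CPM in enteroendocrine libraries, against 1.03, 0.579 and 0.393 in Lgr5-GFP-Cre libraries. It rose in both (log2 fold change 4.05, SE 0.63, adjusted p = 7.42e-05 in Bmi1-GFP; log2 fold change 3.53, SE 0.65, adjusted p = 0.000353 in enteroendocrine cells), and neither group overlapped the stem cells. Enteroendocrine markers summed to 13288, 12084 and 7007 CPM in Bmi1-GFP, 27842 and 13382 CPM in enteroendocrine and 291, 263 and 278 CPM in Lgr5-GFP-Cre libraries, and their part was not tested. Goblet libraries carried Slc38a11 at 5.68 and 5.96 CPM, against 0.411 and 0.917 in CD274+CD69+ control libraries (log2 fold change 3.11, SE 0.74, adjusted p = 0.00202). The lysosomal protein Slc7a14 was at 11.9 and 8.11 CPM in enteroendocrine libraries, against 5.30, 1.67 and 2.27 in Lgr5-GFP-Cre libraries (log2 fold change 1.70, SE 0.39, adjusted p = 0.00163). Slc38a9, the lysosomal arginine sensor of mTORC1, was at 14.2 and 13.8 CPM in enteroendocrine libraries, against 5.99, 7.33 and 6.55 in Lgr5-GFP-Cre libraries (log2 fold change 1.08, SE 0.30, adjusted p = 0.00636). Set against enteroendocrine cells, Slc38a9 was lower in Bmi1-GFP libraries at 8.46, 7.20 and 6.90 CPM (log2 fold change -0.90, SE 0.29, adjusted p = 0.0327) and in Paneth libraries at 4.19 and 8.62 CPM (log2 fold change -1.11, SE 0.33, adjusted p = 0.0192). Paneth libraries were also below enteroendocrine libraries for Slc38a11 at 0.613 and 0.562 CPM (log2 fold change -3.69, SE 0.78, adjusted p = 0.00302) and for Slc7a14 at 3.27 and 3.06 CPM (log2 fold change -1.66, SE 0.44, adjusted p = 0.0103). The Slc7a14 call against enteroendocrine cells was lost without enteroendocrine replicate 1 or Paneth replicate 2, and both Slc38a9 calls against them without enteroendocrine replicate 1, among others.

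The endolysosomal carrier Slc15a4 was low in enteroendocrine libraries and also in Goblet libraries, where Slc15a3 was at 0 CPM. Slc15a4 stood at 11.3 and 8.91 CPM in Goblet libraries. It was at 6.79 and 11.6 CPM in enteroendocrine libraries, against 30.2, 31.0 and 27.6 in Lgr5-GFP-Cre libraries (log2 fold change -1.68, SE 0.28, adjusted p = 0.000147), and was also lower in Bmi1-GFP libraries at 12.5, 19.3 and 18.7 CPM (log2 fold change -0.82, SE 0.24, adjusted p = 0.00889). CD274+CD69+ control libraries were at 17.6 and 16.8 CPM (log2 fold change -0.78, SE 0.27, adjusted p = 0.0256), a call lost on leaving out any of 4 libraries. Slc38a7, a lysosomal glutamine carrier, was lower in enteroendocrine libraries at 5.74 and 8.88 CPM, against 10.8, 18.01 and 11.4 in Lgr5-GFP-Cre libraries (log2 fold change -0.87, SE 0.25, adjusted p = 0.00969), a call lost under 3 alternatives. Bmi1-GFP libraries were lower too, at 7.64, 9.12 and 8.52 CPM (log2 fold change -0.67, SE 0.22, adjusted p = 0.0184), a call lost without Lgr5-GFP-Cre replicate 2 or Bmi1-GFP replicate 1. Slc38a6 had its lowest mean in Lgr5-GFP-Cre libraries, at 1.17, 1.22 and 1.92 CPM, and its highest in Goblet libraries, at 11.4 and 8.47 CPM. Enterocyte progenitors, at 1.56 and 1.87 CPM, overlapped the Lgr5-GFP-Cre libraries, and Lgr5-GFP-DTR libraries were at 3.84 and 2.33 CPM. Slc36a4 ran from 0 to 4.57 CPM over the libraries and was highest in the Goblet group. Slc38a10 ran from 86.3 to 249.9 CPM, highest in the Paneth group with its 2 highest groups overlapping.

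Among the carriers of neurotransmitter and osmolyte type, Slc6a8, the creatine carrier, gave the lowest adjusted p of any member. It was at 2427 and 2318 CPM in Goblet libraries, against 53.7 and 55.3 in CD274+CD69+ control libraries (log2 fold change 5.44, SE 0.52, adjusted p = 1.53e-07) and 24.7 and 39.6 in Paneth libraries. It was also higher than in Lgr5-GFP-Cre cells (6.06, 14.3 and 11.01 CPM) in Bmi1-GFP (73.8, 35.0 and 74.7 CPM), enteroendocrine (28.7 and 31.1 CPM), enterocyte progenitor (44.5 and 30.6 CPM) and DBZ libraries (20.6 and 43.4 CPM). Rbpj libraries were at 124 and 165 CPM, above the DBZ libraries (log2 fold change 2.18, SE 0.45, adjusted p = 0.00182). No group overlapped the Lgr5-GFP-Cre libraries in those comparisons. The differences ran from log2 fold change 1.51, SE 0.40, adjusted p = 0.00532 in enteroendocrine cells to log2 fold change 2.54, SE 0.38, adjusted p = 4.56e-05 in Bmi1-GFP cells, with log2 fold change 2.38, SE 0.40, adjusted p = 0.000136 in control cells and log2 fold change 1.84, SE 0.40, adjusted p = 0.00167 in enterocyte progenitors. Against Paneth cells the Goblet libraries differed most (log2 fold change 6.20, SE 0.54, adjusted p = 6.77e-08). The taurine carrier Slc6a6 moved the same way with smaller steps, 322 and 264 CPM in Goblet libraries, against 191 and 189.8 in control libraries (log2 fold change 0.62, SE 0.23, adjusted p = 0.0295). Slc6a6 was at 72.6, 116 and 88.7 CPM in Lgr5-GFP-Cre libraries, and control cells were above them (log2 fold change 1.04, SE 0.21, adjusted p = 0.000507).

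Slc6a4, the serotonin transporter, was at 362 and 348 CPM in Goblet libraries, against 99.4 and 100.3 in control libraries (log2 fold change 1.83, SE 0.40, adjusted p = 0.000807). Its lowest mean was in enteroendocrine cells, the lineage that makes serotonin, at 8.84 and 19.95 CPM, against 33.8, 85.2 and 67.5 in Lgr5-GFP-Cre libraries (log2 fold change -2.10, SE 0.39, adjusted p = 0.000296). Paneth libraries were at 48.8 and 106 CPM (log2 fold change 2.42, SE 0.41, adjusted p = 0.000681 against enteroendocrine cells), and Bmi1-GFP libraries were at 60.9, 59.6 and 57.6 CPM (log2 fold change 2.03, SE 0.38, adjusted p = 0.00154 against enteroendocrine cells). Neither overlapped the enteroendocrine libraries. The glycine carrier Slc6a9 was at 31.8 and 16.6 CPM in Paneth libraries, against 4.68, 3.60 and 5.90 in Lgr5-GFP-Cre libraries (log2 fold change 2.34, SE 0.47, adjusted p = 0.000702). The enteroendocrine libraries differed widely in Slc6a9, at 3.04 and 16.6 CPM, and Bmi1-GFP libraries were at 4.58, 3.73 and 3.54 CPM (log2 fold change -1.33, SE 0.47, adjusted p = 0.0435), a call lost on leaving out any Bmi1-GFP library. The proline carrier Slc6a7 was at 19.9 and 14.6 CPM in Goblet libraries, against 1.90 and 1.24 in control libraries (log2 fold change 3.46, SE 0.49, adjusted p = 1.18e-05). It was at 7.84 and 6.80 CPM in Rbpj libraries, against 2.26 and 1.10 in DBZ libraries (log2 fold change 2.11, SE 0.46, adjusted p = 0.00274), a call lost without DBZ replicate 2.

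Slc1a2 and Slc1a3 are glutamate carriers known from glia. Slc1a2 was at 32.6, 11.7 and 14.5 CPM in Lgr5-GFP-Cre libraries, and was lower in Bmi1-GFP cells at 1.53, 2.64 and 4.02 CPM (log2 fold change -2.83, SE 0.54, adjusted p = 0.000399), in control cells at 2.93 and 2.20 CPM (log2 fold change -2.93, SE 0.64, adjusted p = 0.00121) and in DBZ libraries at 1.93 and 0.569 CPM (log2 fold change -3.95, SE 0.68, adjusted p = 0.000251). Enteroendocrine cells at 4.57 and 3.81 CPM (log2 fold change -2.23, SE 0.62, adjusted p = 0.00684) and enterocyte progenitors at 6.81 and 4.64 CPM (log2 fold change -1.77, SE 0.60, adjusted p = 0.025) were lower too. The enteroendocrine call was lost without enteroendocrine replicate 2, and the enterocyte progenitor call under 3 alternatives, leaving out either progenitor library among them. Rbpj libraries, at 7.76 and 15.01 CPM, were above DBZ libraries (log2 fold change 3.17, SE 0.68, adjusted p = 0.00237). The Goblet libraries held 2 and 0 counts of Slc1a2, against 57 and 48 in control libraries and 125 and 88 in Paneth libraries (adjusted p = 0.000693 and 2.03e-05). Slc1a3 was at 2.05 and 1.62 CPM in Goblet libraries, against 39.6 and 45.2 in control libraries (log2 fold change -4.53, SE 0.63, adjusted p = 9.61e-06). It was at 37.1 and 43.1 CPM in Paneth libraries (log2 fold change -4.45, SE 0.63, adjusted p = 1.13e-05 for Goblet against Paneth). Slc1a3 was lower in enterocyte progenitors at 21.4 and 24.1 CPM, against 30.3, 72.3 and 60.8 in Lgr5-GFP-Cre libraries (log2 fold change -1.26, SE 0.48, adjusted p = 0.0451), a call lost under 5 alternatives. Slc1a1, Slc1a2 and Slc1a3, all carriers of acidic amino acids, were lower in Goblet than in control libraries.

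Rarely read members of this type were the dopamine carrier Slc6a3 and the betaine carrier Slc6a12. Slc6a3 ran from 0 to 26.8 CPM over the libraries, and Slc6a12 from 0 to 0.961 CPM. Slc6a3, Slc6a12 and the broad carrier Slc6a14 (0 to 0.743 CPM) were called in none of the 14 comparisons. In the growth group, Slc38a3 reached at most 6.74 CPM, Slc38a4 6.03 CPM and Slc38a5 1.94 CPM in any library. Slc38a4 was at 5.65, 4.50 and 6.03 CPM in Lgr5-GFP-Cre libraries and had 0 counts in both Goblet libraries. It was lower than in Lgr5-GFP-Cre cells in DBZ libraries at 0.406 and 0.284 CPM (log2 fold change -3.94, SE 1.39, adjusted p = 0.0349) and in CD274+CD69+ control libraries at 0.411 and 0.138 CPM (log2 fold change -4.28, SE 1.45, adjusted p = 0.0231). Each of these 2 calls was lost on leaving out either library of the DBZ or the control group. Slc7a6 ran from 2.39 to 23.1 CPM, with its highest mean in Lgr5-GFP-DTR cells.

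Of the remaining 4 members, Slc7a4 had its highest mean in Lgr5-GFP-Cre libraries, at 47.9, 93.9 and 72.1 CPM. Next came Lgr5-GFP-DTR libraries, at 60.4 and 40.1 CPM. Paneth libraries, at 53.3 and 34.2 CPM, were not called lower than Lgr5-GFP-Cre libraries for Slc7a4. In enteroendocrine libraries it was at 42.1 and 37.4 CPM. It was lower in Bmi1-GFP cells at 21.7, 35.2 and 19.97 CPM (log2 fold change -1.48, SE 0.25, adjusted p = 0.000132), enterocyte progenitors at 22.4 and 27.1 CPM (log2 fold change -1.53, SE 0.29, adjusted p = 0.000515) and control cells at 33.1 and 31.0 CPM (log2 fold change -1.15, SE 0.28, adjusted p = 0.00292). DBZ libraries were at 31.1 and 26.2 CPM (log2 fold change -1.32, SE 0.29, adjusted p = 0.00163). Goblet libraries were lowest at 14.9 and 15.6 CPM, against 33.1 and 31.0 in control libraries (log2 fold change -1.07, SE 0.31, adjusted p = 0.00736), a call lost without control replicate 2. Slc7a15 was at 317 and 170.0 CPM in Goblet libraries, against 24.4 and 26.5 in control libraries (log2 fold change 3.26, SE 0.75, adjusted p = 0.00144), and was at 13.05, 9.69 and 24.4 CPM in Bmi1-GFP libraries, against 1.05 and 0.923 in enteroendocrine libraries (log2 fold change 4.00, SE 0.84, adjusted p = 0.00304). The peptide carrier Slc15a2 (PepT2) was at 17.2 and 9.53 CPM in Rbpj libraries, against 1.12 and 3.37 in DBZ libraries (log2 fold change 2.58, SE 0.60, adjusted p = 0.00401). Against Lgr5-GFP-Cre libraries, at 6.75, 4.44 and 7.56 CPM, it was lower in enterocyte progenitors at 1.44 and 1.59 CPM (log2 fold change -2.04, SE 0.57, adjusted p = 0.00858). Paneth libraries at 2.45 and 1.75 CPM (log2 fold change -1.59, SE 0.57, adjusted p = 0.0338) and DBZ libraries (log2 fold change -1.49, SE 0.55, adjusted p = 0.042) were lower as well, calls lost under 4 and 5 alternatives. Slc7a2, a carrier of basic amino acids, was at 0.315 and 0.147 CPM in Goblet libraries, against 2.11 and 3.21 in control libraries (log2 fold change -3.50, SE 0.90, adjusted p = 0.00318) and 6.03 and 4.43 in Paneth libraries (log2 fold change -4.47, SE 0.90, adjusted p = 0.000412).

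After 10 Gy the 1 irradiated Bmi1-GFP library had 15 transporters more than 1 on the log2 scale above the range of the 3 unirradiated libraries and 8 below it; of all genes 13.3% were above and 18.1% below. There is no replicate, so no test was made. Slc15a1 was at 475 CPM in the irradiated library, against 28.9 to 62.7 in unirradiated libraries. Slc6a19 was at 809 CPM in it, against 93.5 to 138. Slc7a9 was at 616 CPM, Slc3a1 at 383 CPM, Slc36a1 at 193 CPM and Slc6a8 at 316 CPM, each above all unirradiated libraries. Slc7a7 was at 515 CPM, Slc7a8 at 389 CPM and Slc3a2 at 702 CPM, and Slc7a15 reached 248 CPM. Slc6a3 stood at 26.8 CPM, against 0.118 to 1.05 in unirradiated libraries, its highest level of the series.

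Slc1a1 went the other way, at 8.92 CPM in the irradiated library, against 69.3 to 82.6 in unirradiated libraries. Slc1a5 was at 33.5 CPM, Slc1a3 at 5.28 CPM, Slc7a1 at 18.5 CPM and Slc7a5 at 9.61 CPM, each under every unirradiated library. Slc1a4, at 4.08 CPM, was under them too, but Slc1a4 and Slc7a5 were not below the range by more than 1 on the log2 scale. Slc38a1 at 77.4 CPM, Slc38a2 at 203 CPM and Slc7a11 at 1.95 CPM lay above every unirradiated library. Of these only Slc7a11 did so by more than 1 on the log2 scale. The enterocyte markers summed to 140855 CPM in the irradiated library and 11859, 7608 and 19787 CPM in unirradiated libraries, with none of the 12 at 0. Goblet markers were higher too, at 16373 CPM in the irradiated library and 3801, 4249 and 6423 CPM in unirradiated libraries. Proliferation markers summed to 149 CPM in the irradiated library and 575, 708 and 659 CPM in unirradiated libraries, and stem markers to 63.2 CPM in the irradiated library and 830.5, 1377 and 1136 CPM in unirradiated libraries. Enteroendocrine markers summed to 1967 CPM in the irradiated library and 13288, 12084 and 7007 CPM in unirradiated libraries. The part of these markers was not tested. The library shared with the Goblet libraries high Slc15a1, Slc6a19, Slc7a15 and Slc6a8 and low Slc1a1 and Slc1a3. Slc1a4, high in Goblet libraries, was at its lowest of the series in the irradiated library.

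**Figure D5:**
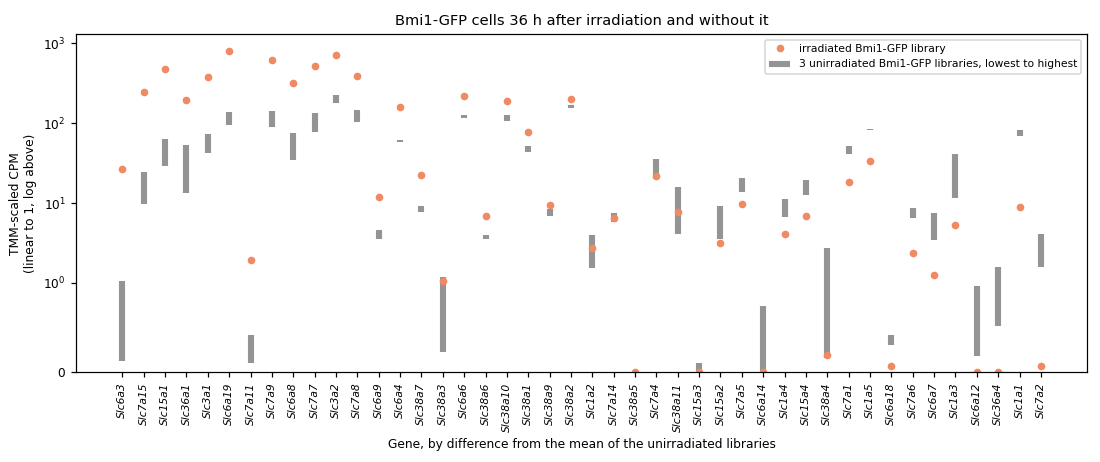
Level of 44 of the 45 tested transporters in the irradiated Bmi1-GFP library (points) and the range of the 3 unirradiated Bmi1-GFP libraries (bars), in TMM-scaled CPM (linear to 1, logarithmic above), ordered by difference. Slc6a3, Slc7a15 and Slc15a1 lie above the bars at the left, and Slc1a1 and Slc7a2 lie below at the right.

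No transporter was called after toxin treatment. Against CD274+CD69+ control cells, cells from DT mice had 0 of 45 called by edgeR, 0 higher and 0 lower, where 0.175% of all genes were called (0.0741% higher, 0.101% lower). At an unadjusted p below 0.05 were 6 of the 45 transporters, a larger share than the 6.01% of all genes, and DESeq2's test called 0. The median log2 fold change was -0.19 over the transporters and 0.015 over all genes. With so small a share of all genes called, 0 of 45 does not show that the transporters were unchanged. Slc15a1 was at 24.5 and 65.6 CPM in DT libraries, against 72.6 and 81.6 in control libraries, and Slc6a19 at 30.7 and 101 CPM, against 202 and 211. The 2 DT libraries differed from each other more than the 2 control libraries did. Enterocyte markers summed to 5957 and 10937 CPM in DT libraries and 17030.5 and 17191 CPM in control libraries. Goblet markers summed to 8971 and 6954 CPM in DT and 10742 and 11758 CPM in control libraries. Proliferation markers summed to 937 and 694 CPM in DT and 718 and 673 CPM in control libraries. The part of these markers was not tested. Slc7a9 was at 108 and 178 CPM, Slc3a1 at 53.4 and 81.5 CPM, Slc36a1 at 10.4 and 16.1 CPM and Slc1a1 at 161 and 142 CPM in DT libraries. Slc7a7 was at 81.8 and 137 CPM, Slc7a8 at 205 and 297 CPM and Slc3a2 at 214 and 282 CPM there. Slc38a2 was at 218 and 192 CPM in DT libraries, below both control libraries, with log2 fold change -0.63, SE 0.19, adjusted p = 0.344. Slc7a5 was at 46.7 and 26.2 CPM, Slc1a5 at 104 and 80.2 CPM, Slc1a4 at 17.5 and 10.7 CPM, Slc7a1 at 58.2 and 53.0 CPM, Slc38a1 at 67.0 and 58.3 CPM and Slc7a11 at 1.11 and 0.194 CPM.

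The 2 Lgr5 reporter lines differed in few transporters: Lgr5-GFP-DTR cells were higher for 3 and lower for 2, where 20.5% of all genes were called (9.49% higher, 11.1% lower). Slc1a4 was at 37.3 and 40.3 CPM in Lgr5-GFP-DTR libraries, against 22.5, 13.3 and 17.0 in Lgr5-GFP-Cre libraries (log2 fold change 1.14, SE 0.35, adjusted p = 0.0292). Slc7a6, an exchanger of basic and neutral amino acids, was at 23.1 and 21.2 CPM in Lgr5-GFP-DTR libraries, against 15.8, 9.78 and 8.60 in Lgr5-GFP-Cre libraries (log2 fold change 0.96, SE 0.30, adjusted p = 0.0289). Each of these 2 calls was lost under 6 alternatives. Paneth markers summed to 226516 and 164672 CPM in Lgr5-GFP-DTR and 48533, 40104 and 49352 CPM in Lgr5-GFP-Cre libraries, all 6 of these and all 5 tuft markers were higher in Lgr5-GFP-DTR cells, and their part was not tested. None of the 11 uptake and release carriers was called by edgeR or by DESeq2's test, and 3 of 11 had an unadjusted p below 0.05, as had 34.6% of all genes. Slc15a1 was at 4.67 and 5.19 CPM, Slc6a19 at 13.5 and 7.73 CPM, Slc7a9 at 42.9 and 46.3 CPM and Slc3a1 at 12.8 and 30.8 CPM in Lgr5-GFP-DTR libraries. Slc1a1 was at 27.6 and 45.0 CPM, Slc36a1 at 2.29 and 3.07 CPM, Slc7a7 at 47.9 and 74.6 CPM, Slc7a8 at 28.3 and 56.6 CPM and Slc3a2 at 120.3 and 148 CPM there. The growth carriers Slc7a5 and Slc1a5 were at 34.0 and 25.7 CPM and 204 and 147 CPM. Slc7a1 was at 42.5 and 40.9 CPM, Slc38a1 at 75.4 and 51.5 CPM, Slc38a2 at 75.7 and 105 CPM and Slc7a11 at 0.208 and 0 CPM.

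Reads of overlapping genes could be shared, since no strand setting is given. Genes of the table overlap Slc15a3, Slc15a4, Slc38a6, Slc3a1, Slc6a9, Slc6a19 and Slc7a7 in RefSeq. Values of these genes are uncertain to that extent. Symbols of opposite-strand transcripts exist for Slc6a19, Slc36a1 and Slc7a6, but no gene of the table overlaps Slc36a1 or Slc7a6 in RefSeq. Slc6a19 held 97146 counts over all libraries, against 166 for its opposite-strand symbol, and Slc7a7 held 54935, against 32121 for the overlapping Oxa1l. Slc15a3 held 304, against 3211 for the overlapping Tmem132a.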

How the data were processed

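Bulk RNA-seq (75 bp single-end reads) was measured in crypt cells, and the authors deposited raw counts per gene. Per the submitters' processing notes, Bowtie2, TopHat2 2.0.6 and DESeq2 were used with the mm10 build; the strand setting is not given in the sources used here. Levels are TMM-scaled CPM computed here from the deposited counts. Of 49 samples, 24 were not used. In R 4.3.3, edgeR 4.0.16 fitted the quasi-likelihood test over 24 replicated libraries in 11 groups, keeping 14837 genes past filterByExpr (minimum count 10, minimum total 15), with Benjamini-Hochberg adjustment over all of them at 0.05 in 14 comparisons. The single irradiated library was described against the range of its unirradiated group. The procedure was tested on simulated data. Alternatives were DESeq2 1.42.0 (size factors or test), no low-count filter, a replicate block, fits of the compared groups alone and leaving out each replicate. The members, gene lists and the naming rule (16 main uptake, release, growth and stress carriers always; in each comparison up to 5 members per direction of lowest adjusted p whose higher group averaged at least 5 CPM; the rest once) were chosen with earlier results of these data known. Sequences came from RefSeq, GRCm38.p6. Some items, 1 member among them, are not reported here by name; counts over the members include it.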

Additional observations from a re-analysis of the deposited data

How the results depend on the processing

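At 11179085 to 27371108 counts per library, Slc1a7 was too rarely read to be tested. Counts of called transporters under the alternatives were as follows. Enterocyte progenitors against DBZ secretory progenitors had 1, then 0 when only these groups were fitted, 3 with DESeq2's test and 0 to 2 on leaving out single replicates. With only the compared groups fitted, DBZ secretory progenitors against Lgr5-GFP-Cre gave 13, Paneth against Lgr5-GFP-Cre 12, Paneth against enteroendocrine cells 11, DT against control 1 and Lgr5-GFP-DTR against Lgr5-GFP-Cre 0. On leaving out single replicates, the count ran from 8 to 13 for enterocyte progenitors and 7 to 18 for DBZ secretory progenitors (7 without DBZ replicate 2), 13 to 21 for enteroendocrine, 11 to 17 for Paneth, 17 to 21 for Bmi1-GFP, 15 to 22 for CD274+CD69+ control and 0 to 7 for Lgr5-GFP-DTR cells, all against Lgr5-GFP-Cre. It ran from 8 to 14 for Bmi1-GFP and 8 to 17 for Paneth against enteroendocrine cells, 6 to 9 for Rbpj against DBZ secretory progenitors, 23 to 26 for Goblet against control, 23 to 30 for Goblet against Paneth, 0 to 0 for DT against control and 23 to 24 for the irradiated library. Of 153 called results for named genes, 67 lost the call at least once over 1498 refits, 199 refits in all. Slc6a9 in Bmi1-GFP against enteroendocrine cells reversed, with a log2 fold change of 0.37 without enteroendocrine replicate 2 and -2.08 without replicate 1, against -1.33 with both. The labels do not say that replicate numbers mark a shared mouse or batch. Same-numbered Bmi1-GFP and Lgr5-GFP-Cre libraries did not deviate together (r = -0.07, 0.03 and 0.15). In the other comparisons r ran from -0.35 (enterocyte progenitors against Lgr5-GFP-Cre) to 0.39 (Paneth against enteroendocrine cells). The replicate block lost 11 of the 153 calls and gave 3 in Lgr5-GFP-DTR against Lgr5-GFP-Cre. This block fits the same replicate effects in all groups, so it cannot take up a pairing particular to some of them. DESeq2 size factors shifted the median gene by 0.213 on the log2 scale in Goblet against Paneth cells, with 19 transporters higher and 10 lower. The causes were not tested. Counts for groups of carriers under these settings were added after seeing the data.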
